A study of Rattus norvegicus with 6 samples.

Results

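The genes described here are 8 CC chemokines, Ccl2, Ccl3, Ccl4, Ccl5, Ccl7, Ccl11, Ccl19 and Ccl20, together with fractalkine, Cx3cl1. They were taken by symbol from the gene-level count tables of 6 RNA-seq libraries, in which 21857 genes are listed, and all 9 were found. The libraries came from primary fibroblasts isolated from the hearts of neonatal rats no older than 3 days, which the design text names as Sprague-Dawley while the strain label reads Noway. The 3 libraries of the Vector group, labelled WT, came from cells given the empty plasmid. The 3 libraries labelled FTO overexpression came from cells transfected with rat FTO cDNA in the pcDNA 3.1 plasmid, FTO being an enzyme that removes the N6-methyladenosine mark from RNA. Per the study's methods, cells were collected 48 hours after transfection, and both groups had received the lipid transfection reagent. A hypoxia step is described for these fibroblasts, without saying whether the sequenced cultures went through it. The comparison of both groups was made by the study to look for transcripts that change with FTO in cardiac fibroblasts.

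Chemokines are small secreted proteins that steer leukocytes along a gradient by binding G protein-coupled receptors. CCL2 and CCL7 act on CCR2 and draw monocytes out of the blood, CCL3 and CCL5 act on CCR1, CCL4 is a close relative of CCL3, CCL11 draws eosinophils through CCR3, CCL19 binds CCR7 on dendritic cells and naive T cells, and CCL20 binds CCR6. Fractalkine is made as a membrane-anchored protein that holds cells bearing CX3CR1, and proteases can shed it. In injured heart, fibroblasts, macrophages and endothelial cells are all known sources of such signals, and CCL2 is among the best studied of them.

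Transcripts of 8 of the 9 genes were higher in the libraries labelled FTO, and Ccl11 was too rare to be tested. Of all genes tested, 33.2% were called higher. Ccl5, Ccl19 and Ccl20 had reads enough to be tested only in the libraries labelled FTO, so nothing is read from the count of 8. Among the genes with reads enough in both groups, the increases ran from 4.49-fold for Ccl3 to 35.7-fold for Ccl7. Ccl20 was fitted at 102-fold from no more than 9 reads in any Vector library. Ccl5 and Ccl19 started from no more than 1 read in any Vector library, and the pooled ratio of Ccl5 was 3045. Ccl2 and Ccl7 supplied most of the added reads. Among the receptors, Cx3cr1 fell to 1 to 3 reads per library and Ccr1 rose.

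Each library held 13178952 to 17857999 counts, and values are given as CPM, a gene's counts relative to the total of its library, after edgeR's TMM scaling evened out the totals. At these depths 3 counts, the lowest level read here as a signal, equal 0.167 to 0.226 CPM. The plasmid carried Fto, but endogenous and plasmid transcripts could not be separated. Fto stood at 87.7, 89.6 and 87.3 CPM in Vector and 93.2, 90.7 and 92.8 CPM in the libraries labelled FTO, a log2 fold change of 0.06 ± 0.0468 (SE) that did not pass the test (adjusted p = 0.239, edgeR quasi-likelihood), although the groups did not overlap. The groups are therefore named by their labels. Gene profiles correlated at 0.992 to 0.994 within groups and 0.873 to 0.880 between them. The labels do not say whether the 3 libraries of a group came from separate cultures or animals, so p-values measure only the spread between these libraries, which may be technical.

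Of 12941 genes with enough counts to be tested, 65.9% passed an adjusted p of 0.05, 33.2% in the upward and 32.8% in the downward direction. All 8 tested chemokines passed upward. The threshold of the study, a change of 1 or more on the log2 scale together with an unadjusted p under 0.05, was passed by 19.6% of genes tested in either direction, by 10.4% upward, and by all 8 chemokines upward. Ccl5, Ccl19 and Ccl20 had at most 9 counts in any Vector library and passed the low-count filter only through the other group, so they had to differ, and nothing is read from the count of 8. In all 9 genes, Ccl11 included, the lowest library labelled FTO lay above the highest Vector library, as in 35.5% of genes tested, while groups were separate in either direction in 70.3%. In the order of log2 fold changes over all genes tested, Ccl7 came 127th, Ccl2 came 249th and Ccl3 came 532nd. Ccl3 had the smallest change among the 8 and was within the top 4.11%. Ccl5 came 7th and Ccl20 came 68th. Nothing is read from the ranks of Ccl5 and Ccl20, since both were tested only through the group where they were high.

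**Figure D1:**
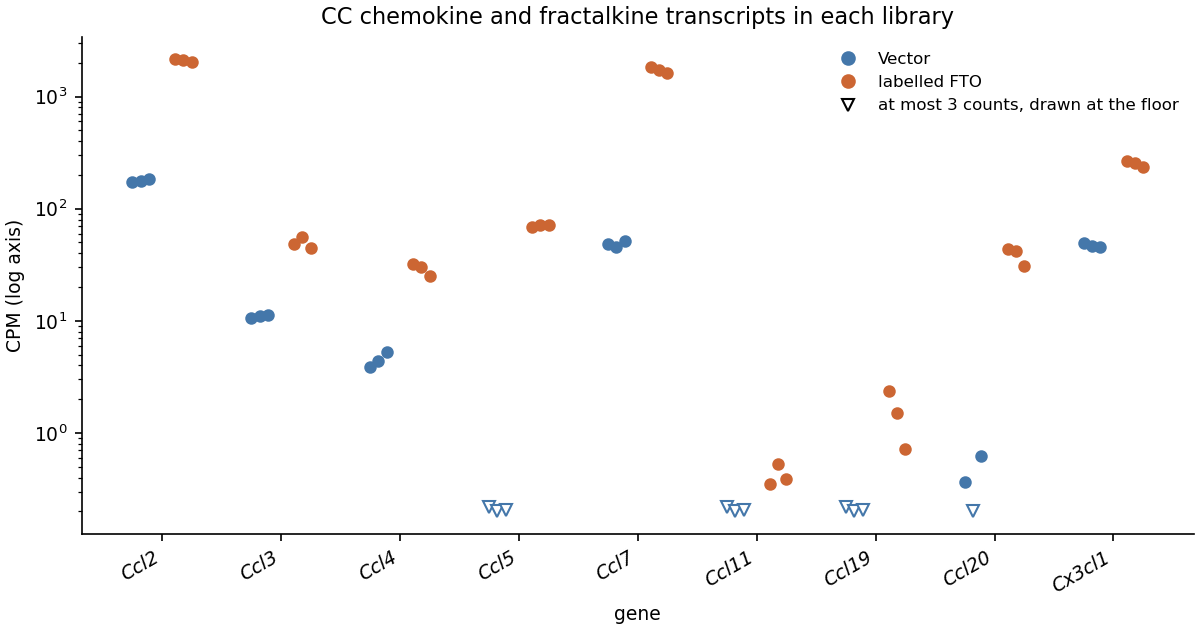
CPM (log axis) of the 9 genes in the 3 Vector and 3 FTO-labelled libraries, 1 point per library, with open triangles at the 3-count floor for libraries with at most 3 counts. The groups are separate in every gene, with the libraries labelled FTO higher, as in 35.5% of genes tested. Levels run from Ccl2 at about 175 to 185 against 2015 to 2147 CPM down to Ccl11, whose Vector libraries all sit at the floor. Ccl5, Ccl19 and Ccl20 were tested only through the libraries labelled FTO, and Ccl11 was not tested.

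Reference promoters were available for 4 of the 9 genes (Ccl7, Ccl19, Ccl20 and Cx3cl1) and are shown because these genes rose together, and because promoters of inflammatory chemokines are known to carry sites for NF-kB and, in some, for interferon-responsive factors. The sequences are the 250 bases before the RefSeq transcription start in the rat assembly GRCr8, 5′ to 3′ on the gene's strand. The count files were made on rn6, so these coordinates belong to the reference only. Ccl7 is at chr10:67513845-67514094 on the plus strand, Ccl20 at chr9:91836909-91837158 on the plus strand, Cx3cl1 at chr19:10242821-10243070 on the minus strand and Ccl19 at chr5:61761165-61761414 on the minus strand. Capitals mark matches, on either strand, to the NF-kB pattern GGNNNTTCC and, in Ccl19 only, the interferon-response pattern GAAANNGAA.
Ccl7: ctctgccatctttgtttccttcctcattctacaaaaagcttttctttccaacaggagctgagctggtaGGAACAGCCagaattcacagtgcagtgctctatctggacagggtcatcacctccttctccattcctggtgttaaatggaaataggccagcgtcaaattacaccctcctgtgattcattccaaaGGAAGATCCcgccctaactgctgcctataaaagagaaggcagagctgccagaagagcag
Ccl20: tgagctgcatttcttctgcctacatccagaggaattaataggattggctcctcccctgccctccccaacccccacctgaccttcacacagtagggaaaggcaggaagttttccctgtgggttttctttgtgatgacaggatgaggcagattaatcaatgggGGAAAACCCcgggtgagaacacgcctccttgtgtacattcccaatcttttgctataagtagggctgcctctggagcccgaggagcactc
Cx3cl1: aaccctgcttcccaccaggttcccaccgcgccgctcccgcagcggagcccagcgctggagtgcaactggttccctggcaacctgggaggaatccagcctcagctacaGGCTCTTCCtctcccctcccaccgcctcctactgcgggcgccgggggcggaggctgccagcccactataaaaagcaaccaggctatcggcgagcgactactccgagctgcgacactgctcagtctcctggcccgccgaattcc
Ccl19: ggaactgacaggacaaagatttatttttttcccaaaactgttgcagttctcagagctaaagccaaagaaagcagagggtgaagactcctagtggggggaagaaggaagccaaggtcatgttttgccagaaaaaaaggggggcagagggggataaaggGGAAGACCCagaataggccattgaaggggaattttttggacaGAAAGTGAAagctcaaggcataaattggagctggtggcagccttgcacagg

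All 4 windows hold the NF-kB pattern, which occurs in 15.4% of 33469 rat promoters of the same length. Ccl7 has 2 matches on the opposite strand, 182 to 174 and 59 to 51 bases before the start. The single match in Ccl20 lies 89 to 81 bases before the start, also on the opposite strand, and that in Cx3cl1 143 to 135 bases before it on the gene's own strand. Ccl19 pairs an opposite-strand NF-kB match at 93 to 85 bases with an interferon-response match at 51 to 43 bases, the latter pattern being found in 8.12% of promoters. The AP-1 pattern TGANTCA was found only in Ccl7 among the 4 (6.34% of promoters), and the C/EBP pattern TTNNGNAA only in Ccl19, as 2 matches that overlap each other (37.2% of promoters). A match is a run of letters and not a bound site, and no binding was measured in these libraries.

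Ccl2 and Ccl7 encode CCR2 ligands, and Ccl2 had the most reads of the 9 genes in every library. Ccl2 had 175, 175 and 185 CPM in Vector and 2147, 2097 and 2015 CPM in the libraries labelled FTO. Every library labelled FTO was above every Vector library, and the spread within each group was a few percent of its mean. The fold change was 11.7 (95% interval 10.9 to 12.5), a log2 change of 3.55 ± 0.0455 (SE, adjusted p = 8.3e-18). Ccl7, which shares the receptor, had 47.96, 45.7 and 51.1 CPM in Vector and 1816, 1737 and 1619 CPM in the libraries labelled FTO. The Vector libraries were close together and far below the others, and the fold change of 35.7 (32.7 to 39.0) had an interval wholly above that of Ccl2 (log2 5.16 ± 0.0600, adjusted p = 3.0e-18).

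The ratio of Ccl7 to Ccl2 counts within a library takes out depth and scaling. It was 0.275, 0.261 and 0.276 in Vector and 0.846, 0.828 and 0.803 in the libraries labelled FTO. The groups do not overlap, and the mean log2 ratio was 1.61 higher in the libraries labelled FTO. A two-sided exact permutation test over the 20 assignments of libraries gave p = 0.1, the smallest that 3 against 3 allows. Both genes are next to each other in the RefSeq order of protein-coding genes on chromosome 10.

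Ccl3, Ccl4 and Ccl5 encode chemokines that draw monocytes and T cells, those of Ccl3 and Ccl5 through CCR1. Ccl3 had 10.7, 11.1 and 11.3 CPM in Vector and 48.7, 56.2 and 44.3 CPM in the libraries labelled FTO. Its Vector values lay within 1 CPM of each other, and those of the other group were spread more widely around a mean of 49.7 CPM. The fold change was 4.49 (3.89 to 5.18, log2 2.17 ± 0.0968, adjusted p = 2.3e-11). Ccl4, the neighbour of Ccl3, had 3.88, 4.43 and 5.26 CPM in Vector and 32.0, 30.4 and 25.3 CPM in the libraries labelled FTO. Again no library crossed over, and the fold change was 6.42 (5.29 to 7.79, log2 2.68 ± 0.130, adjusted p = 6.4e-11). The ratio of Ccl4 to Ccl3 counts was 0.363, 0.400 and 0.463 in Vector and 0.658, 0.541 and 0.571 in the libraries labelled FTO, without overlap (log2 difference 0.53, two-sided exact permutation p = 0.1, likewise the smallest possible, and 0.1 after adjustment over the 2 ratios compared).

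Ccl5 changed from near absence. The Vector libraries held 1, 0 and 0 reads, and the libraries labelled FTO held 975, 955 and 1284 reads, or 68.3, 72.1 and 71.7 CPM. One Vector read against 3214 in the other group sets the pooled ratio at 3045, with an exact 95% counting interval from 546 to 120295. The lower end of that interval is the informative one, because the upper end rests on a single read. The edgeR fit gave an adjusted p of 4.4e-16. Little can be read from it, since Ccl5 entered the test only through the group where it was high. The fitted log2 change of Ccl5, 11.12, depends on the count added before taking logs. It was 13.05 without Vector replicate 1, the library with the only Vector read.

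Ccl11, Ccl19 and Ccl20 encode ligands for receptors of eosinophils (CCR3), dendritic and naive T cells (CCR7) and mucosal lymphocytes (CCR6). Ccl20 had 5, 2 and 9 reads in Vector and 624, 559 and 557 reads in the libraries labelled FTO, equal to 0.366, 0.134 and 0.623 CPM against 43.7, 42.2 and 31.1 CPM. The Vector libraries differed among themselves by several fold on these few reads, while the other libraries were all above 31 CPM. The fold change was 102 (70.3 to 148, log2 6.67 ± 0.251, adjusted p = 2.8e-12, edgeR). Little can be read from that call, since Ccl20 passed the low-count filter only through the libraries labelled FTO. Without Vector replicate 3, which has 9 of the 16 Vector reads, the log2 change was 7.26. Ccl19 had 0, 0 and 1 reads in Vector and 34, 20 and 13 reads in the libraries labelled FTO, or 2.38, 1.51 and 0.726 CPM in the latter. The values of the second group differ by more than those of any other of the 9 genes relative to their mean. The pooled ratio was 63.5 (exact counting interval 11.0 to 2544), and the edgeR fit gave an adjusted p of 4.2e-05, from which little can be read since Ccl19 entered the test only through the group where it was high. Its fitted log2 change of 5.56 ± 0.864 became 7.47 without Vector replicate 3, the library with the only Vector read.

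Ccl11 was near the detection limit throughout. It had 3, 1 and 2 reads in Vector and 5, 7 and 7 in the libraries labelled FTO, and the pooled ratio was 3.00 with an exact counting interval of 1.15 to 9.18. It did not pass the low-count filter. With the filter removed, its log2 change was 1.53 ± 0.761 and did not pass (adjusted p = 0.0896, edgeR). The counting interval lies above 1 but covers counting error only, so a change was not established at this depth.

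Fractalkine is the sole chemokine of the CX3C class. Cx3cl1 had 49.1, 46.7 and 45.3 CPM in Vector and 265.6, 254.6 and 237.4 CPM in the libraries labelled FTO. No library of one group came near the other, and the spread was small in both. The fold change was 5.37 (4.95 to 5.83, log2 2.43 ± 0.0552, adjusted p = 5.9e-15).

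**Figure D2:**
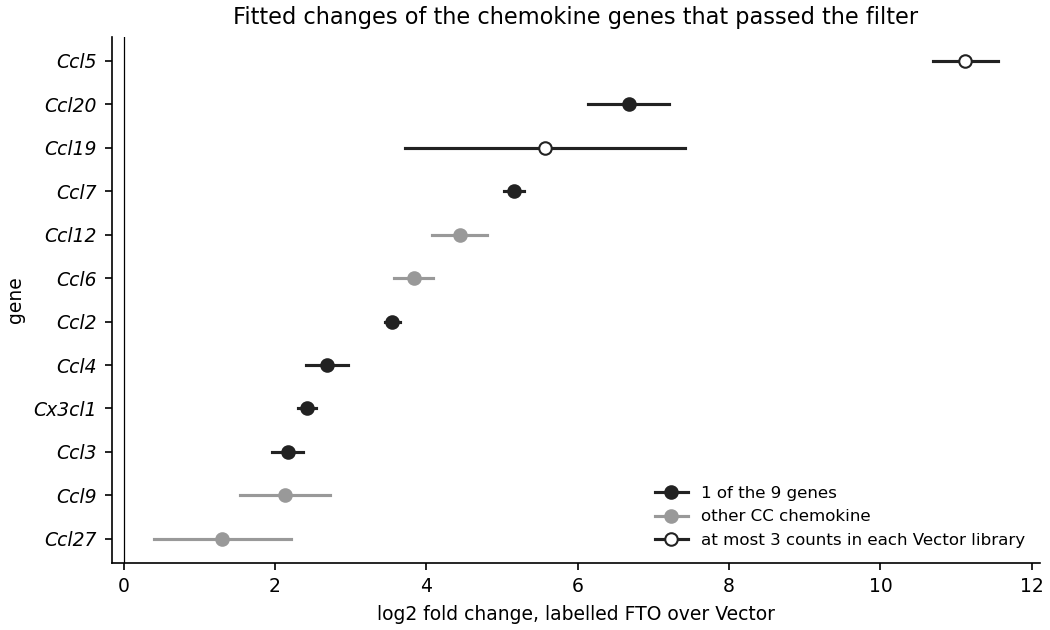
Fitted log2 fold changes (points) with 95% intervals (bars), libraries labelled FTO over Vector, for the 8 tested genes in black and 4 other CC chemokines in grey, with open points where every Vector library has at most 3 counts, so that the fitted size depends on the added count. All intervals lie above 0, with Ccl3 at 2.17, Cx3cl1 at 2.43 and Ccl7 at 5.16. Little can be read from this for Ccl5, Ccl9, Ccl19, Ccl20 and Ccl27, which were tested only through the libraries labelled FTO.

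Ordered by log2 fold change, Ccl3, Cx3cl1 and Ccl4 were the lowest. The 95% interval of Cx3cl1 (2.31 to 2.54) overlaps those of Ccl3 (1.96 to 2.37) and Ccl4 (2.40 to 2.96), while those of Ccl3 and Ccl4 just fail to meet. Overlap of intervals is not a test, and the change of Cx3cl1 was not tested against that of Ccl3 or Ccl4. Ccl2 lay above these with an interval of 3.45 to 3.65, and Ccl7 lay above Ccl2 with 5.03 to 5.29. Ccl20 (6.14 to 7.21) lay above Ccl7, and the interval of Ccl19 (3.72 to 7.41) covers both. Ccl5 was fitted highest, with the limit on its size given above. Nothing is read from the places of Ccl5, Ccl19 and Ccl20, which were tested only through the group where they were high. The intervals compare changes, not levels, and gene length does not enter them.

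The reads of all 9 genes together made up 0.0285%, 0.0283% and 0.0298% of counts in Vector and 0.442%, 0.431% and 0.406% in the libraries labelled FTO. Their makeup changed as well. Ccl2 accounted for 61.5% ± 0.595 (SD, n = 3) of these reads in Vector and 49.1% ± 0.666 in the libraries labelled FTO. The share of Ccl7 went from 16.7% ± 0.496 to 40.5% ± 0.510. Ccl2 and Ccl7 together took about 9 of every 10 reads on the 9 genes in the second group. Other chemokines such as Ccl12 and Ccl6 are not counted in these shares. The share of Cx3cl1 fell from 16.2% ± 1.01 to 5.94% ± 0.0670, although its own level rose. Ccl5 rose from 0.00850% to 1.67% ± 0.114 and Ccl3 fell from 3.81% ± 0.0924 to 1.17% ± 0.123. Shares are of reads, not of molecules, since transcript lengths were not used here, and the share of one gene cannot move without moving the others.

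**Figure D3:**
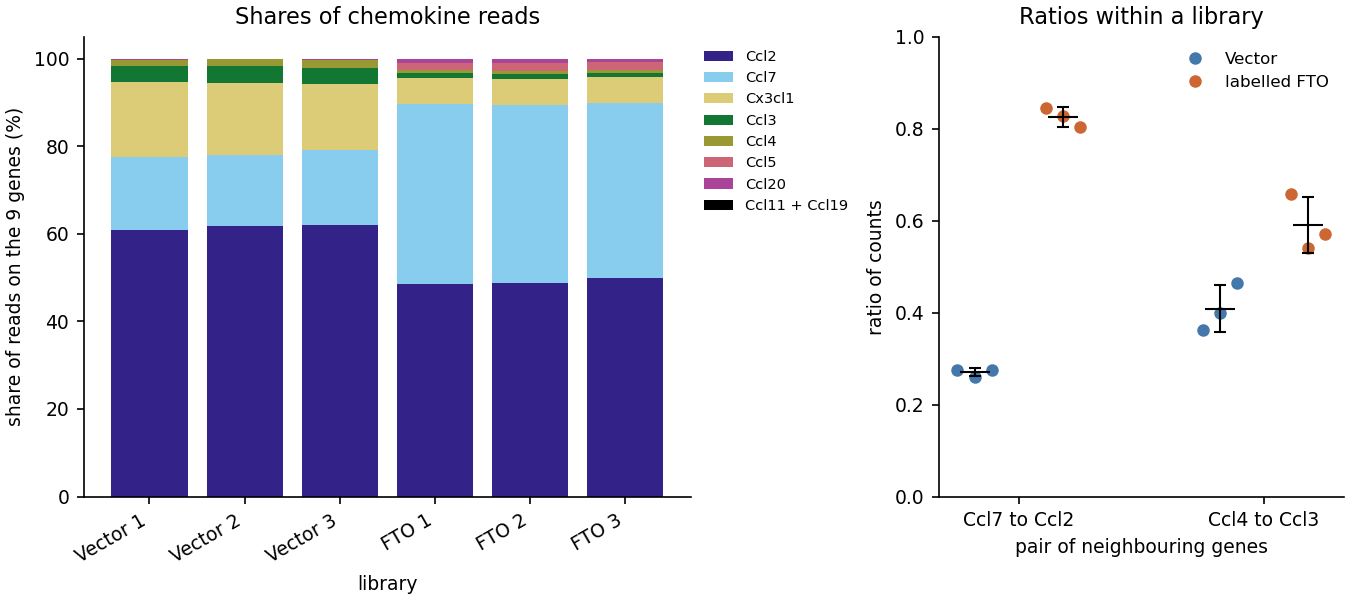
Left, share of the reads on the 9 genes (%) that each gene takes in each library, as stacked bars. Right, ratio of counts of neighbouring genes, with points for libraries and black marks for mean ± SD. Ccl7 takes 40.5% of these reads in the libraries labelled FTO against 16.7% in Vector, and its ratio to Ccl2 is 0.826 against 0.271.

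In the RefSeq gene order (GRCr8, protein-coding genes), Ccl2, Ccl7, Ccl11, Ccl12 and Ccl1 are consecutive, and so are Ccl5, Ccl9, Ccl6, Ccl3 and Ccl4, all on chromosome 10. Cx3cl1 sits between Ccl17 and Ccl22 on chromosome 19, and Ccl19 is next to Ccl27. Ccl12, a CCR2 ligand of rodents, went from 1.85 ± 0.437 CPM (SD, n = 3) to 40.7 ± 6.81 CPM (log2 4.44 ± 0.170 SE, adjusted p = 3.4e-12), while Ccl1 had 0 reads in Vector and 2, 1 and 1 in the libraries labelled FTO. In the second run all 5 genes rose, as did 33.2% of all genes tested. Vector alone held too few reads for Ccl5 or Ccl9 to pass the filter. Ccl6, a CCR1 ligand of rodents, went from 9.94 ± 2.27 to 141.7 ± 16.6 CPM (log2 3.83 ± 0.121, adjusted p = 3.0e-13), and Ccl9 from 1.01 ± 0.373 to 4.44 ± 1.02 CPM (log2 2.13 ± 0.279, adjusted p = 7.3e-06). Both neighbours of Cx3cl1 fell under the low-count filter. Ccl17 had 0 reads in every Vector library and 14, 16 and 10 in the others, at least 4.17-fold higher when Vector is set at 3 counts per library, and Ccl22 had 4, 2 and 0 against 18, 13 and 9 reads. With the filter removed both were higher past the threshold (edgeR, adjusted p = 2.6e-06 for Ccl17 and 0.00089 for Ccl22, the latter with a log2 change of 2.60 ± 0.670).

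Of 13 other CC, C and CX3C chemokines, 4 could be tested, while 7 had at most 3 counts in every library. Ccl6, Ccl9 and Ccl12 rose as given above. The fourth was Ccl27, a skin chemokine that passed the filter only through the libraries labelled FTO, with 8, 8 and 8 reads in Vector and 12, 13 and 39 in the libraries labelled FTO (log2 1.31 ± 0.424, adjusted p = 0.0136). That call rested on FTO replicate 3, without which the log2 change was 0.69 with an adjusted p of 0.174 (edgeR, 0.00544 to 0.174 over all alternatives). Ccl26 and Xcl1 had no reads in any library.

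The receptors had few reads in every library. Of 11 CC and CX3C receptors followed, 2 could be tested, Ccr1 and Cx3cr1, the latter passing the filter only through Vector, and 6 had at most 3 counts throughout. Cx3cr1, the fractalkine receptor, had 64, 45 and 77 reads in Vector and 1, 2 and 3 in the libraries labelled FTO, so ligand and receptor transcripts went in opposite directions. Its pooled ratio, Vector over the other group, was 32.7 (exact counting interval 14.8 to 90.3, adjusted p = 4.8e-08 in the edgeR fit). Cx3cr1 is known from macrophages, whose markers were lower in the same libraries, and in bulk RNA fewer cells of a type and less RNA per cell cannot be told apart. Ccr1, a receptor for CCL3 and CCL5, had 0.877, 1.81 and 0.900 CPM in Vector and 8.90, 9.06 and 6.81 CPM in the libraries labelled FTO, without overlap (log2 2.75 ± 0.239, adjusted p = 7.5e-08). Ccr2, the receptor of CCL2 and CCL7, had no reads in any library, nor had Ccr3, Ccr6 and Ccr8. For each of these a count of 0 allows up to 0.167 to 0.226 CPM per library, and it covers counting error only. Ccr7, the receptor of CCL19, had 0 reads in Vector and 6, 1 and 9 in the others.

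**Figure D4:**
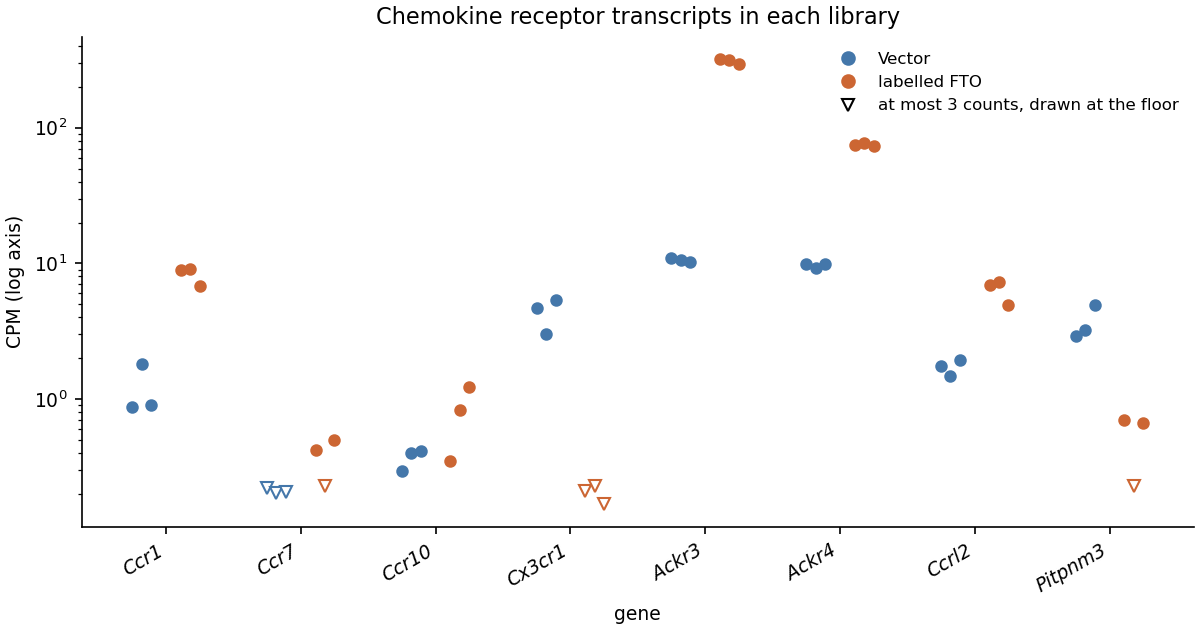
CPM (log axis) of 8 chemokine receptor genes in each library, drawn as in the plot of the 9 ligands. Cx3cr1 is at the 3-count floor in all libraries labelled FTO and at 3.02 to 5.33 CPM in Vector, and Ackr3 rises from about 10.6 to 310.8 CPM.

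Atypical receptors bind chemokines without the usual signal and can scavenge them. Of 6 such genes 5 were matched by symbol and 4 could be tested. Ackr3, a scavenger of CXCL12, rose from 10.6 ± 0.362 to 310.8 ± 14.1 CPM (log2 4.88 ± 0.0621, adjusted p = 8.0e-18). Ackr4, which takes up CCL19, rose from 9.65 ± 0.403 to 75.2 ± 2.31 CPM (log2 2.96 ± 0.0712, adjusted p = 1.1e-14), and Ccrl2 from 1.72 ± 0.233 to 6.39 ± 1.30 CPM. Pitpnm3, described as a receptor for CCL18, fell from 3.69 ± 1.07 to 0.482 ± 0.352 CPM (log2 -2.85 ± 0.389, adjusted p = 1.1e-05). Little can be read from that call, since Pitpnm3 passed the filter only through Vector. Ackr2, the scavenger of inflammatory CC chemokines, had at most 2 reads in any library.

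Among 7 genes for proteases that cut chemokines, 5 rose, 1 fell and 1 did not pass. The shares over all genes tested were 33.2% higher and 32.8% lower. Adam17, a sheddase of fractalkine, rose from 114.3 ± 5.25 to 238.9 ± 3.44 CPM (log2 1.06, adjusted p = 1.3e-11), and Adam10, which sheds it constitutively, from 96.0 to 112.6 ± 11.1 CPM (log2 0.23, adjusted p = 0.0044). Mmp2, a gelatinase that trims CCL7, had the most reads of them and went from 1525 ± 24.5 to 2915 ± 127 CPM (log2 0.94). Dpp4, which clips the amino end of several chemokines, rose from 0.766 to 2.26 CPM (log2 1.52, adjusted p = 0.0030), on 6 to 20 reads per Vector library. Its log2 change was 2.26 without Vector replicate 3, which has 20 of these reads. Vector alone held too few reads for Dpp4 to pass the filter. Ctss, a cathepsin that can also cut fractalkine, fell from 95.7 ± 3.99 to 22.6 ± 1.26 CPM (log2 -2.09 ± 0.0637, adjusted p = 2.1e-13). Furin did not pass (log2 0.10, adjusted p = 0.0573), but did so without FTO replicate 2 (adjusted p = 0.0259, edgeR).

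Chemokines are held at cell surfaces by sulfated sugar chains. Of 10 genes for carriers and makers of these chains, 9 were tested, 2 rose, 5 fell and 2 did not pass. Over all genes tested, 33.2% were higher and 32.8% lower. Sdc4, a syndecan, rose from 143.5 ± 0.544 to 1307 ± 30.7 CPM (log2 3.19, adjusted p = 9.5e-18), whereas Sdc2 fell from 378.6 to 138.9 CPM (log2 -1.45, adjusted p = 1.6e-13). Tnfaip6, a secreted protein that binds chemokines and hyaluronan, rose from 6.37 to 47.9 CPM (log2 2.91). Of the 5 that fell, Ndst1 had overlapping groups and an adjusted p of 0.0430, which became 0.0516 to 0.166 without Vector replicate 1, 2 or 3 or without FTO replicate 1 or 2 (edgeR). Of the 2 that did not pass, Ext1 passed without FTO replicate 2 (log2 0.14, adjusted p = 0.0043). The median log2 change of the list was -0.14, against 0.00 over all genes tested.

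The cytokines that are known to induce these chemokines were partly absent. Tnf, Il17a, Ifnb1 and Ifng had no reads in any library, which allows at most 0.167 to 0.226 CPM each, whereas the interleukin-1 genes and Il6 rose. Il1a had 0, 1 and 1 reads in Vector and 30.6, 29.9 and 29.2 CPM in the libraries labelled FTO. Il1b rose from 0.423 to 36.6 ± 2.50 CPM (log2 6.42, adjusted p = 6.0e-13, with log2 values of 7.02 without Vector replicate 1 and 5.92 without Vector replicate 3) and Il6 from 2.01 ± 0.604 to 57.5 ± 5.54 CPM (log2 4.84, adjusted p = 9.0e-14). On the receptor side, Il1r1 rose from 348.5 to 863.3 ± 82.4 CPM (log2 1.31) and Ifngr1 from 208.2 to 726.5 CPM (log2 1.80), while Il1rap, the partner chain of Il1r1, fell from 39.95 to 26.0 CPM (log2 -0.62, adjusted p = 1.7e-06). Of the 16 genes listed, 12 could be tested, 11 rose and 1 fell, against 33.2% higher and 32.8% lower among all genes tested. Il1a and Il1b count among the 11, although Vector alone held too few reads for either to pass the filter. Little can therefore be read from their calls.

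Of 16 genes for NF-kB subunits, kinases and feedback inhibitors, 11 rose, 2 fell and 3 did not pass, with a median log2 change of 1.25, against 0.00 over all genes tested. The shares over all genes were 33.2% higher and 32.8% lower. Feedback inhibitors showed the largest changes of this list. Tnfaip3, which encodes A20, rose from 8.42 ± 0.452 to 95.9 ± 5.10 CPM (log2 3.51, adjusted p = 2.9e-15), Tnip1 from 76.4 to 580.5 ± 30.2 CPM (log2 2.92) and Nfkbia from 38.1 ± 1.55 to 208.3 ± 14.9 CPM (log2 2.45, adjusted p = 1.9e-14). Of the subunits, Nfkb1 rose from 119.0 to 283.2 CPM (log2 1.25), Relb by a log2 change of 1.58 and Rela by 0.31. The 2 that fell, Rel (log2 -0.46, adjusted p = 0.0168) and Chuk (log2 -0.14, adjusted p = 0.0491), did not hold in every analysis. Rel missed the threshold without Vector replicate 2 (adjusted p = 0.0522, edgeR) and without FTO replicate 1 (0.0508), and with DESeq2 (0.0629), and Chuk did so in 10 of 13 alternatives, among them those without Vector replicate 1, 2 or 3 and without FTO replicate 2 or 3.

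Chemokine transcripts are short-lived, and proteins that bind AU-rich elements or cut stem-loops control their decay. Of 7 such genes 4 rose, 1 fell and 2 did not pass, against 33.2% higher and 32.8% lower among all genes tested. Zc3h12a, which encodes the RNase Regnase-1, rose from 19.2 ± 0.878 to 138.3 ± 7.11 CPM (log2 2.84, adjusted p = 4.5e-15), and Zfp36l1 from 157.5 to 325.3 CPM (log2 1.05, adjusted p = 7.0e-12). Zfp36, which encodes tristetraprolin, fell from 45.4 to 38.3 CPM (log2 -0.25, adjusted p = 0.0029).

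**Figure D5:**
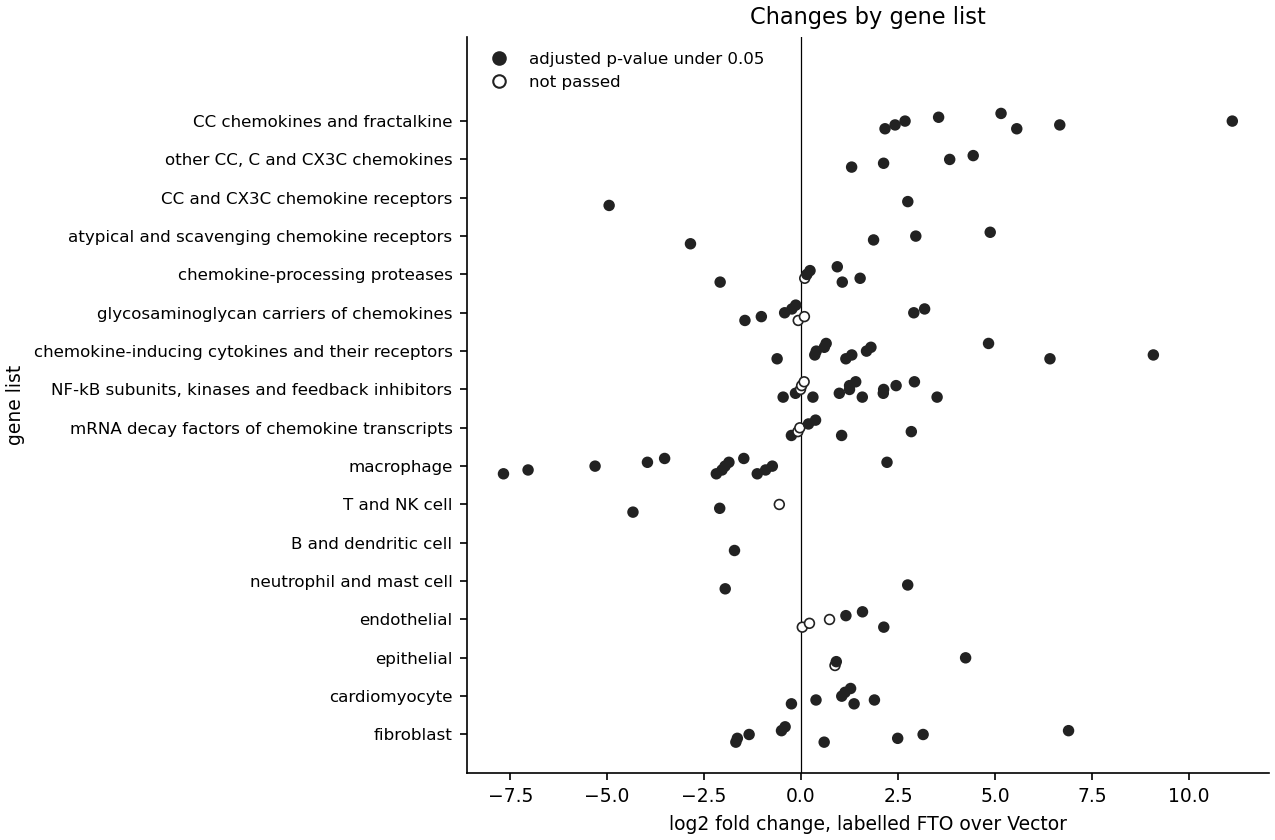
Log2 fold changes, libraries labelled FTO over Vector, of the tested genes of each list, 1 point per gene, filled where the adjusted p-value is under 0.05. The chemokines lie wholly to the right of 0, whereas 13 of 14 macrophage markers lie to the left. Ccl5, Ccl19 and Ccl20 were tested only through the libraries labelled FTO, and C1qb and C1qc only through Vector.

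Summed levels of each leukocyte marker list were lower where the ligands were higher. Outside the macrophage list the Vector sums were mostly Cd4, Itgax or Kit (means of 28.6, 21.0 and 8.99 CPM). Those sums therefore do not show a general fall of leukocytes. All 14 macrophage markers were expressed and 13 fell, with a summed level of 1916 to 1977 CPM in Vector and 326 to 368 CPM in the libraries labelled FTO. The share lower over all genes tested was 32.8%. Csf1r, the receptor that macrophages need for survival, fell by 3.96 on the log2 scale, and Lyz2, the lysozyme gene, fell from 1116 ± 22.8 to 97.6 ± 5.80 CPM. C1qb, a complement component gene, had 274, 279 and 294 reads in Vector and 1, 1 and 2 in the others. Adgre1, which encodes F4/80, was the exception and rose from 6.80 to 31.7 CPM (log2 2.22). Of 9 T and NK cell markers, 3 were tested and 2 fell (summed level 33.1 to 36.6 against 7.36 to 9.32 CPM), Cd4 from 28.6 to 6.60 CPM and Cd8a from 55, 69 and 55 reads to 3, 2 and 4. Cd3e, Cd3d and Nkg7 had no reads in any library. The summed level was mostly Cd4, so it does not show that T or NK cells were present in either group. B and dendritic cell markers summed to 19.7 to 22.7 against 6.31 to 7.32 CPM, with Ms4a1 at 0 and Itgax, the 1 gene tested, lower (log2 -1.73). Neutrophil and mast cell markers summed to 9.55 to 10.6 against 3.85 to 4.70 CPM, with Mpo, Elane, Cpa3 and Tpsab1 at 0, Kit lower (log2 -1.95) and S100a8 at 3, 7 and 2 against 27, 31 and 29 reads. C1qb, C1qc and Cd8a passed the low-count filter only through Vector, and S100a8 only through the libraries labelled FTO. Little can be read from the calls of these genes.

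Other cell types were also represented. Endothelial markers summed to 22.4 to 22.8 against 47.4 to 49.7 CPM (3 of 6 tested rose, Kdr by a log2 change of 2.13 and Tek by 1.16, and Cldn5 was at 0), epithelial markers to 2.41 to 2.84 against 8.55 to 13.1 CPM (2 of 3 tested rose, with Krt18 at 4, 6 and 7 against 88, 111 and 149 reads), and cardiomyocyte markers to 1667 to 1699 against 2586 to 2664 CPM (6 of 7 rose, Tnni3 by 1.89 on the log2 scale, and Tnnt2 fell). Krt18 passed the filter only through the libraries labelled FTO. Fibroblast markers, all 9 of them expressed, summed to 40105 to 40739 against 19809 to 20798 CPM, with 4 higher and 5 lower. For comparison with these counts, 33.2% of all genes tested were higher and 32.8% lower. Col1a1 fell from 25793 ± 336 to 8262 ± 377 CPM and Col3a1 from 10693 to 3335 CPM, both genes of fibrillar collagens, whereas Dcn, the decorin gene, rose from 47.0 ± 1.57 to 5607 ± 221 CPM (log2 6.90). Transcripts of the labelled cell type were thus present in both groups. The part of these shifts in the chemokine changes was not tested.

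For each tested chemokine, the pair of other genes with the most similar profile was taken by the root mean square difference of centred log2 CPM over the 6 libraries. Cx3cl1 was closest to Lgals3bp (0.0313) and Nfkbia (0.0409), Ccl2 to Steap2 (0.0607) and Tnfaip3 (0.0626), and Ccl3 to Tifa (0.0573) and Dpt (0.0717). Ccl7 was closest to Angptl4 (0.0549) and Bst2 (0.0912), and Ccl4 to Inhbb (0.121) and Nppb (0.121). Those that started near 0 had looser matches. Ccl5 was nearest to Mx2 (0.207) and Rsad2 (0.231), Ccl20 to Ifi44l (0.338) and Ddx60 (0.349), and Ccl19 to Il2ra (0.275) and Gprc5d (0.320). With 2 groups of 3 libraries, likeness of this kind is mostly likeness in the size of the difference between groups.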

How the data were processed

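The authors deposited 1 table of raw read counts per gene for each of the 6 libraries, and per the labels these came from total RNA of heart fibroblasts. The submitters' processing notes name Trimmomatic and the rn6 build. The aligner, counter, annotation and strand setting are not given in the sources used here, so reads of overlapping or near-identical genes could not be told apart. Groups follow the genotype label (3 Vector, 3 labelled FTO overexpression).

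Counts were filtered with filterByExpr (minimum count 10), scaled by TMM and tested with the quasi-likelihood test of edgeR 4.0.16 (limma 3.58.1, R 4.3.3) over all 12941 genes that passed, with Benjamini-Hochberg adjustment over those genes. Log2 fold changes are FTO over Vector. The pipeline was tested on simulated data. Exact permutation tests were used for count ratios, and exact Clopper-Pearson intervals (95%) for pooled counts of genes at or near 0. Libraries carry no molecular identifiers, so intervals and floors (3 counts) cover counting error only.

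The alternatives were DESeq2 1.42.0, its size factors, limma-voom, library size alone, another and no low-count filter, the replicate number as a block, and each library left out. The genes and lists were chosen with earlier results of these data known. Genes named are the 9 chemokines, Fto, the 2 closest profiles of each chemokine, and from each list the largest changes in each direction, the most abundant gene and those with a role bound to a chemokine. Others were named after their values were seen, to account for list counts. Transcript lengths were not used, so levels are not compared between genes. Promoters are from RefSeq (GRCr8). One gene of a list is not reported here.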

Additional observations from a re-analysis of the deposited data

How the results depend on the processing

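Ccl2, Ccl3, Ccl4, Ccl7 and Cx3cl1, which had reads enough in both groups, stayed higher past the adjusted threshold in all 13 alternatives. For Ccl5, Ccl19 and Ccl20, tested only through the group where they were high, passing carries no such information. The number of genes past the threshold, 8531 in the reported analysis, ranged from 7795 to 9009, and from 7902 to 8719 with 1 library left out. With the replicate number as a block it was 8399. Deviations of same-numbered libraries correlated at 0.003, -0.069 and 0.021, within the range of differently numbered ones (-0.094 to 0.087). With 3 libraries per group this cannot tell whether same-numbered libraries share a culture or preparation. The block lost the call of Chuk (adjusted p = 0.0561, edgeR). With no low-count filter, 4 receptors passed in place of 2, among them Ccr7 (adjusted p = 0.0025, edgeR). Signs turned only among genes that did not pass the test. With 1 library left out, log2 changes ranged from -0.126 to 0.0107 for Sdc1, from -0.0577 to 0.0314 for Ikbkb, from -0.0878 to 0.144 for Ikbkg, from -0.417 to 0.258 for Zfp36l2 and from -0.0524 to 0.000186 for Khsrp, and limma-voom gave 0.0301 for Zfp36l2. The cause was not tested. Of 70 genes followed singly, 11 changed a call or sign in some alternative. Shares per transcript length were not run, since no transcript lengths were at hand. Groups of 3 limit every error given, and depth limits Ccl11, Ccl17, Ccl22 and most receptors, whose reads per library are few.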
